A study of Mus musculus with 12 samples.

Results

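The transcripts of 9 ligands of the tumour necrosis factor (TNF) superfamily were followed through the activation of mouse CD8 T cells. They were the rows of the expression table named Tnf, Lta, Ltb, Fasl, Tnfsf8, Tnfsf9, Tnfsf10, Tnfsf11 and Tnfsf14, which are 9 of 48709 genes listed. All 9 passed the filter on low values (1 TPM or more in 3 or more libraries out of 12), as did 12630 genes in all. TPM is a unit scaled for the length of a transcript and for the size of its library, so levels can be set side by side between genes. The cells came from the spleens of OT-I mice, which carry a transgenic T cell receptor for an ovalbumin peptide, so that all groups share that receptor. The Naive group was collected without stimulation. The groups named 24h, 48h and 72h were collected 24, 48 and 72 h after stimulation began, with antibodies to CD3 at 2 µg/ml and to CD28 at 1 µg/ml together with IL-2 at 10 ng/ml. Stimulation on the plates ended at 48 h, so the 72h cells had left the plates a day earlier, and whether IL-2 was kept after that is not given in the sources used here. There were 3 libraries in each group, which the study's design calls biological replicates. The number, age and sex of the mice and whether cells were pooled are not given either, and the extraction note calls the cells transferred, a step the study's design does not describe. Without that information, p-values measure the spread between these libraries, which may be partly technical. The antibodies engage the receptor complex and a costimulatory receptor directly, in place of the ovalbumin peptide, which limits the culture as a model of activation in tissue.

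As background, most TNF superfamily ligands are made as trimeric membrane proteins, some of which are also released. The ligands signal through receptors of the TNF receptor superfamily on neighbouring cells. Tnf and Lta encode the inflammatory cytokines TNF and lymphotoxin alpha, and Ltb encodes lymphotoxin beta, which holds lymphotoxin alpha at the cell surface and acts through the lymphotoxin beta receptor. Fasl and Tnfsf10 (TRAIL) encode ligands of death receptors. Tnfsf8 (CD30 ligand), Tnfsf9 (4-1BB ligand) and Tnfsf14 (LIGHT) encode costimulatory ligands, and Tnfsf11 (RANK ligand) is best known for osteoclast and lymph node development.

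Each library rested on 14312854 to 19495722 whole reads, as recovered from the steps of its TPM values. Among ligands, Lta reached the most reads (8522) and Tnfsf9 the fewest, with 8 to 51 per library. The 8 CD8 T cell markers (Cd3d, Cd3e, Cd3g, Cd8a, Cd8b1, Cd247, Lck and Thy1) were present in every library, with a summed level of 5377 to 5551 TPM in Naive and 3014 to 4140 TPM in the activated groups. Markers of other splenic cells were also present in Naive and low later. The summed myeloid level (10 markers) was 2335, 1647 and 939 TPM in replicates 1, 2 and 3 of the Naive group. It lay between 17.2 and 23.7 TPM at 24h and reached at most 11.5 TPM thereafter, with Lyz2, C1qa, C1qb, C1qc, Csf1r, S100a8, S100a9 and Adgre1 at 0 in every 72h library. The 8 B cell markers summed to 361 to 426 TPM in Naive, 78.2 to 81.1 at 24h, 30.5 to 36.7 at 48h and 24.9 to 31.7 at 72h. The 6 NK cell markers summed to 272 to 559 TPM in Naive, 18.9 to 23.5 at 24h, 31.5 to 40.6 at 48h and 135 to 151 at 72h, most of it from Gzma, which activated CD8 T cells also express. The 8 erythroid and platelet markers summed to 1547 to 2157 TPM in Naive and to 1.73 to 18.1 TPM afterwards, and the 2 CD4 T cell markers to 4.27 to 9.41 and 0.48 to 1.71 TPM. At 24h vs Naive, 3 of 8 CD8 T cell, 7 of 8 B cell, 10 of 10 myeloid and 6 of 6 NK cell markers tested were lower. So were 8 of 8 erythroid and platelet markers and 1 of 1 CD4 T cell markers tested. Over all genes tested, 21.0% were lower and 25.7% higher in that comparison. The marker falls lie beside each comparison with Naive, and their part in those results was not tested. In such bulk libraries, fewer cells of a type and less RNA per cell cannot be told apart.

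Most of the 9 ligands rose within the first day, and they then parted. Calls needed a limma adjusted p under 0.05 (Benjamini-Hochberg) and a change of 1 or more, up or down, on the log2(TPM + 1) scale, here termed the fold minimum. At 24h vs Naive, 6 ligands rose (Lta, Tnfsf14, Tnfsf11, Tnfsf8, Tnfsf10 and Tnf), 2 fell (Ltb and Fasl) and Tnfsf9 was not called. Over all genes, 25.7% were higher and 21.0% lower in that comparison. The median log2 fold change was 1.55 over the ligands and 0.15 over all genes tested. At 48h vs Naive the same 6 were called higher and Ltb alone lower (background 24.7% and 20.7%), and the medians were 1.76 and 0.15. At 72h vs Naive, 4 were higher (Lta, Tnfsf8, Tnfsf10 and Tnfsf11) and Ltb was lower (background 24.5% and 19.0%), with medians of 0.89 and 0.21. These 3 comparisons share the Naive libraries. Scaling by median of ratios moved the median of all genes at 24h vs Naive from 0.15 to −0.075 and the background there to 19.9% higher and 25.7% lower, and at 72h vs Naive to 18.2% and 23.7%.

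**Figure D1:**
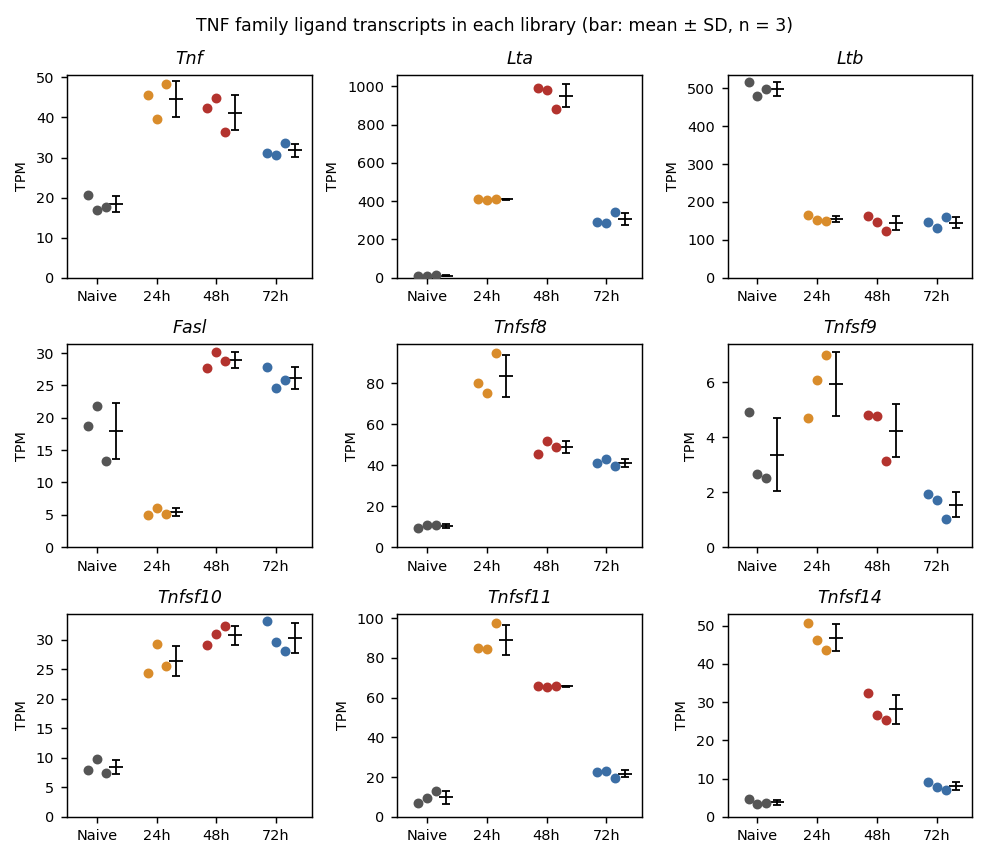
TPM of the 9 ligand transcripts in each of the 12 libraries, by group, with each axis starting at 0. Points are libraries and the bar beside them is the mean ± SD of 3 libraries. Lta reached 882 to 993 TPM at 48h, Ltb stood at 479 to 517 TPM in Naive and at 165 TPM or less later, and Fasl was lowest at 24h.

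Lta (ENSMUSG00000024402), which encodes lymphotoxin alpha, changed most. Its levels in replicates 1, 2 and 3 were 10.2, 10.5 and 12.4 TPM in Naive, 412, 406 and 409 TPM at 24h, 993, 979.5 and 882 TPM at 48h, and 293, 287 and 341 TPM at 72h. The 4 groups did not overlap, and the order was 48h, 24h, 72h and Naive. Against Naive, Lta rose by 5.10 on the log2 scale by 24h, by 6.31 by 48h and by 4.68 by 72h (SE 0.08, limma adjusted p = 3.13e-14, 8.29e-15 and 6.27e-14). Lta rose again from 24h to 48h by 1.21 (adjusted p = 1.84e-07) and fell from 48h to 72h by 1.63 (adjusted p = 1.69e-08), with no overlap between the groups each time.

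Tnf (ENSMUSG00000024401), the gene of TNF itself, moved far less than its neighbour. It was at 20.7, 17.0 and 17.7 TPM in Naive, 45.6, 39.6 and 48.5 at 24h, 42.3, 44.8 and 36.4 at 48h, and 31.0, 30.6 and 33.7 at 72h. Every activated library lay above every Naive library, the 24h and 48h libraries overlapped, and the 72h libraries lay below both. The log2 fold change was 1.23 at 24h (SE 0.10, adjusted p = 8.98e-08) and 1.12 at 48h (adjusted p = 2.52e-07). Median-of-ratios scaling (0.96 and 0.89) and quantile normalization (0.97 and 0.92) put both values under the fold minimum, as a pseudocount of 5 did for the second (0.98). By 72h Tnf stood 0.76 above Naive on the log2 scale (adjusted p = 1.25e-05), under the fold minimum.

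Ltb (ENSMUSG00000024399), which encodes lymphotoxin beta, went the other way. It was at 517, 479 and 499 TPM in Naive, 165, 152 and 149.6 at 24h, 162, 146 and 124 at 48h, and 146, 131 and 159 at 72h. All Naive libraries lay above all others, and the 3 activated groups overlapped. Relative to Naive, Ltb fell by 1.68 by 24h, by 1.79 by 48h and by 1.77 by 72h (SE 0.09, adjusted p = 1.33e-09, 7.26e-10 and 8.89e-10). Between activated groups it differed by −0.12 at 48h vs 24h (adjusted p = 0.325) and by 0.02 at 72h vs 48h (adjusted p = 0.902), a difference whose sign turned with median-of-ratios scaling, quantile normalization and voom on recovered reads. B cells also make Ltb, and the summed B cell markers went from 361 to 426 TPM in Naive to 78.2 to 81.1 at 24h. At 48h these markers summed to 30.5 to 36.7 TPM, and Ltb stood at 155 ± 8.18 TPM at 24h and 144 ± 19.2 TPM at 48h (SD, n = 3). The part of B cells in the Ltb levels was not tested.

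The balance between the lymphotoxin transcripts turned over. The ratio of Lta to Ltb TPM was 0.0222 ± 0.00265 in Naive, 2.64 ± 0.119 at 24h, 6.65 ± 0.501 at 48h and 2.11 ± 0.0963 at 72h (SD, n = 3). No ratio of an activated library lay within the Naive range of 0.0197 to 0.0250. Lta stood at 0.604 ± 0.106 of the Tnf level in Naive and at 23.2 ± 1.22 times it at 48h. These ratios are of transcripts, per length.

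Ltb, Tnf and Lta lie next to each other on chromosome 17, apart from microRNA genes within Ltb and Lta, and their promoters are shown because these neighbours moved in opposite directions. The sequences run 5′ to 3′ on the gene's strand, from 250 bases before to 50 bases after the start in the RefSeq table of build GRCm38.p6, which is not the GRCm39 build of the submitters' notes. Capitals mark matches on either strand to GGAAA (the core bound by NFAT, a factor downstream of calcium), TGANTCA (AP-1), TATAAA (the core promoter element of that name) and the NF-kappaB consensus.
Ltb (chr17:35194257-35194556, plus strand): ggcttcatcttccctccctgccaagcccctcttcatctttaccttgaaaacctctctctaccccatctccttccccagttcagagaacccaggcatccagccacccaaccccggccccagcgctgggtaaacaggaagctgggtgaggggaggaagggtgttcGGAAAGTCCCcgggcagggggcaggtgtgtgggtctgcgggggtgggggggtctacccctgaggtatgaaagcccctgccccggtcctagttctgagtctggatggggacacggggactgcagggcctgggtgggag
Tnf (chr17:35201958-35202257, minus strand): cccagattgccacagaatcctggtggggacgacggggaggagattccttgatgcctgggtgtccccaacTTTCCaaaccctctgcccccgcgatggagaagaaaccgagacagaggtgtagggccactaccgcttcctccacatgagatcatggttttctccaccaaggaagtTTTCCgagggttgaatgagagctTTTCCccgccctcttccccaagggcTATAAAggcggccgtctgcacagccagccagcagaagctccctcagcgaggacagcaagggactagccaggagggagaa
Lta (chr17:35205302-35205601, minus strand): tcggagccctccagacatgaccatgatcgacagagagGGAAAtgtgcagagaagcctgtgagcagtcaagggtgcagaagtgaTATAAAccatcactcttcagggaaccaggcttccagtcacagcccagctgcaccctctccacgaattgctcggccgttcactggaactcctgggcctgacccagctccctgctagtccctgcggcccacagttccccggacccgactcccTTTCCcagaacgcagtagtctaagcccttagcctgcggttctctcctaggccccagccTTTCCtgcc
The Tnf window held GGAAA in 3 places and TATAAA in 1, which began 29 bases before the start. The Lta window held GGAAA in 3 places and TATAAA in 1, beginning 167 bases before the start. The Ltb window held 1 NF-kappaB match, beginning 87 bases before the start and overlapping its only GGAAA. Promoter sequences were available for 8 of the 9 ligands, all but Tnfsf9. Of 32851 promoters of this length, 61.3% held GGAAA, 13.6% TATAAA, 8.46% the NF-kappaB consensus and 7.81% TGANTCA. A match is a description of letters, not a sign of binding.

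Tnfsf14, Tnfsf11 and Tnfsf8 rose by 24h, and their group means were in the order 24h, 48h, 72h and Naive from the top, as was that of Tnf. None of the 3 passed the fold minimum from 24h to 48h (−0.72, −0.43 and −0.76). Tnfsf14 (ENSMUSG00000005824), which encodes LIGHT, a ligand of HVEM and of the lymphotoxin beta receptor, was at 4.58, 3.35 and 3.54 TPM in Naive, 50.7, 46.1 and 43.6 at 24h, 32.3, 26.6 and 25.3 at 48h, and 9.09, 7.78 and 6.98 at 72h. No groups overlapped, with 24h highest and Naive lowest. The log2 fold change against Naive was 3.32 at 24h (SE 0.13, adjusted p = 3.22e-11) and 2.59 at 48h (adjusted p = 4.29e-10). At 72h it was 0.89 (adjusted p = 2.07e-05), under the fold minimum, and it passed the minimum without Naive replicate 1 (1.004), with a pseudocount of 0.1 (1.04) and with quantile normalization (1.07). Tnfsf14 fell by 1.70 from 48h to 72h (adjusted p = 5.44e-07).

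Tnfsf11 (ENSMUSG00000022015), which encodes RANK ligand, followed a like course. Its levels were 6.92, 9.34 and 13.1 TPM in Naive, 85.0, 84.6 and 97.8 at 24h, 65.8, 65.5 and 65.6 at 48h, and 22.7, 22.8 and 19.5 at 72h, again with no overlap between groups. Against Naive it rose by 3.10 at 24h (SE 0.16, adjusted p = 5.50e-10), 2.67 at 48h (adjusted p = 2.73e-09) and 1.11 at 72h (adjusted p = 2.00e-05). The call at 72h was lost without Naive replicate 1 (0.91), with median-of-ratios scaling (0.84), with quantile normalization (0.99) and with a pseudocount of 5 (0.87). Naive replicate 1 had the lowest Naive level and the highest sums of myeloid, B cell and NK cell markers, and a link was not tested. From 48h to 72h Tnfsf11 fell by 1.56 (adjusted p = 6.78e-06).

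Tnfsf8 (ENSMUSG00000028362), which encodes CD30 ligand, was called higher than Naive at all 3 times. It was at 9.38, 10.9 and 10.8 TPM in Naive, 80.3, 75.2 and 94.9 at 24h, 45.7, 51.8 and 49.0 at 48h, and 41.1, 43.3 and 39.5 at 72h. The groups did not overlap. Against Naive, Tnfsf8 rose by 2.89, 2.13 and 1.90 in time order (SE 0.09, adjusted p = 6.08e-12, 1.29e-10 and 4.53e-10). From 24h to 48h it differed by −0.76 (adjusted p = 2.33e-05), under the fold minimum, and from 48h to 72h by −0.24 (adjusted p = 0.0563). At 72h vs 24h the difference of −0.99 lay just under the minimum, and it passed it without 24h replicate 1 (−1.02), 24h replicate 2 (−1.06) or 72h replicate 2 (−1.03), with a pseudocount of 0.1 (−1.01) and with median-of-ratios scaling (−1.002).

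Of the ligands, Tnfsf11 and Tnfsf14 were the closest pair over the 12 libraries, with a root mean square difference of 0.307 between their log2(TPM + 1) values, each centred on its own mean. Lta and Ltb were the farthest pair, at 3.14. The promoters of the closest pair, on chromosomes 14 and 17, are shown with the same marks.
Tnfsf11 (chr14:78307994-78308293, minus strand): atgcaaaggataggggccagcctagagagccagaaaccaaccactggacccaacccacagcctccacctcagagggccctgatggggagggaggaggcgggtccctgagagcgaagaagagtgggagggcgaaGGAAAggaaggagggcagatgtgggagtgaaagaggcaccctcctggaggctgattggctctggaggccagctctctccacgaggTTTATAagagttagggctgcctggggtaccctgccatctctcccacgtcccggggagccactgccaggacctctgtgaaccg
Tnfsf14 (chr17:57194132-57194431, minus strand): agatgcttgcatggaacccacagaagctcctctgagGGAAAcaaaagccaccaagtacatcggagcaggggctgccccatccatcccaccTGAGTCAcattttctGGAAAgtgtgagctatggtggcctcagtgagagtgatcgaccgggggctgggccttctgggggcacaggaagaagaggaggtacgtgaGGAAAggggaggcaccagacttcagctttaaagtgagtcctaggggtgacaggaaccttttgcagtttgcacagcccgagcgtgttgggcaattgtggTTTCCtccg
The Tnfsf14 window held GGAAA in 4 places and TGANTCA in 1, which began 160 bases before the start. The Tnfsf11 window held GGAAA in 1 place, and TATAAA on the opposite strand 32 bases before the start. In the order of genes on chromosome 17, Tnfsf14 lies near Tnfsf9, with Cd70 and the predicted gene Gm33566 between them.

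Fasl (ENSMUSG00000000817), which encodes the ligand of the death receptor Fas, was the ligand that fell and then rose. Its levels were 18.7, 21.8 and 13.3 TPM in Naive, 4.97, 6.13 and 5.14 at 24h, 27.7, 30.1 and 28.8 at 48h, and 27.9, 24.6 and 25.8 at 72h. The 24h libraries lay below all others and the Naive libraries below those of 48h and 72h, which overlapped. Fasl fell by 1.54 at 24h vs Naive (SE 0.14, adjusted p = 2.71e-07) and rose by 2.22 from 24h to 48h (adjusted p = 1.18e-07). Against Naive it was 0.68 higher at 48h (adjusted p = 0.000569) and 0.54 at 72h (adjusted p = 0.00321), both under the fold minimum. NK cells also make Fasl. The NK cell markers Ncr1, Klrb1c, Klra4, Klra8, Klre1 and Gzma summed to 559, 366 and 272 TPM in Naive replicates 1, 2 and 3. Their sum was 18.9 to 23.5 TPM at 24h, 31.5 to 40.6 TPM at 48h and 135 to 151 TPM at 72h. Gzma, which activated CD8 T cells also express, gave 442, 321 and 223 TPM of the Naive sums. At 72h it gave 131, 142 and 149 TPM in replicates 1, 2 and 3, nearly all of those sums. Naive Fasl was highest in replicate 2, and the part of NK cells in its fall was not tested.

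Tnfsf10 (ENSMUSG00000039304), which encodes TRAIL, rose by 24h, and no later step passed the test. It was at 7.99, 9.77 and 7.42 TPM in Naive, 24.4, 29.2 and 25.5 at 24h, 29.0, 30.9 and 32.3 at 48h, and 33.1, 29.6 and 28.1 at 72h. All activated libraries lay above all Naive libraries and overlapped each other from one time to the next. Against Naive, Tnfsf10 rose by 1.55, 1.76 and 1.74 in time order (SE 0.11, adjusted p = 1.23e-08, 3.33e-09 and 4.10e-09). It differed by 0.22 at 48h vs 24h (adjusted p = 0.106) and by −0.02 at 72h vs 48h (adjusted p = 0.889), a difference that turned positive without 48h replicate 3 or 72h replicate 3.

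Tnfsf9 (ENSMUSG00000035678), which encodes 4-1BB ligand, stayed lowest of the 9 at 48h and 72h. Its levels were 4.90, 2.68 and 2.52 TPM in Naive, 4.70, 6.09 and 6.99 at 24h, 4.81, 4.78 and 3.14 at 48h, and 1.92, 1.70 and 1.03 at 72h. The 72h libraries lay below all others, and the other 3 groups overlapped in part. The highest Naive value was in replicate 1, where the myeloid, B cell and NK cell markers also summed highest. Myeloid cells make Tnfsf9, and their part in that value was not tested. At 24h vs Naive the log2 fold change was 0.69 (SE 0.22, adjusted p = 0.0116), and 0.93 without Naive replicate 1. Tnfsf9 fell by 1.44 from 24h to 72h (adjusted p = 1.16e-04), a call lost with a pseudocount of 5 (−0.74). It fell by 1.04 from 48h to 72h (adjusted p = 0.00245), and this call was lost without 48h replicate 1 (−0.96), 48h replicate 2 (−0.96) or 72h replicate 3 (−0.88), with a pseudocount of 5 (−0.49) and under quantile normalization (−0.95). Compared with Naive, 72h differed by −0.75 (adjusted p = 0.00736), or −1.05 with a pseudocount of 0.1. A predicted gene, Gm11110, overlaps Tnfsf9, and since the strand setting is not given, reads of the pair may not have been told apart. Gm11110 was at 3.94 ± 0.991 TPM at 24h and 11.5 ± 0.927 at 72h (SD, n = 3).

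**Figure D2:**
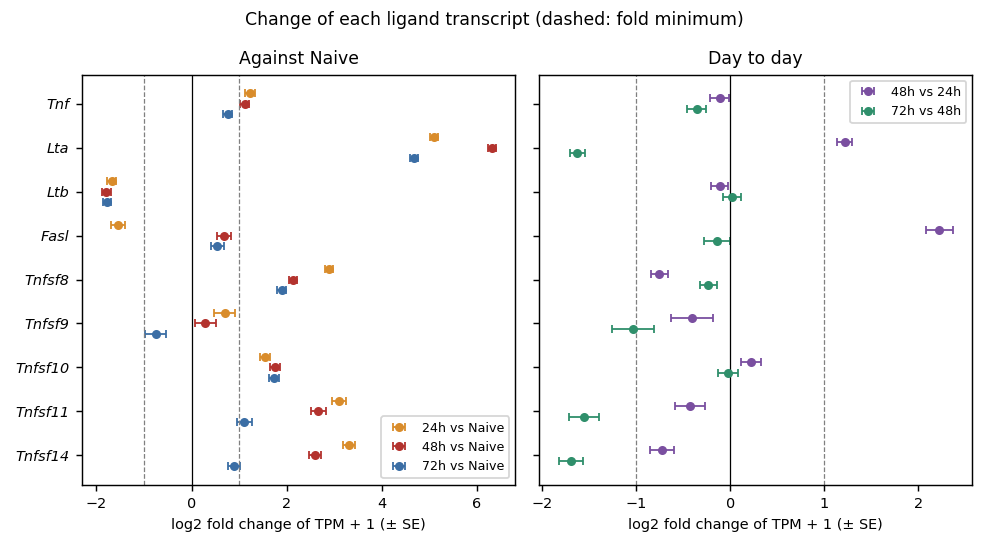
Log2 fold change of TPM + 1 for the 9 ligands with its SE, for each later time against Naive (left) and from day to day (right). Dashed lines mark the fold minimum of 1 on the log2 scale. Lta lies farthest to the right against Naive, at 4.68 to 6.31, and Fasl has the largest change from 24h to 48h, at 2.22.

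Fewer ligands passed the test between the later times. From 24h to 48h, the second day on the plates, Fasl and Lta rose, where 4.95% of all genes tested were called higher. No ligand was called lower by limma (background 3.07%, and 0 of 9 also by voom on recovered reads), while Tnfsf8, Tnfsf11 and Tnfsf14 made up 3 ligands lower at an unadjusted p under 0.05. From 48h to 72h, after the plates, 4 ligands fell (Lta, Tnfsf14, Tnfsf11 and Tnfsf9), where 3.22% of all genes tested were called lower. None was called higher by limma or by voom (background 2.81%), and none reached an unadjusted p under 0.05 on that side. Tnf was 0.36 lower at 72h than at 48h (adjusted p = 0.0127), under the fold minimum, and no 72h library lay above a 48h library. At 72h vs 24h, Tnfsf14, Tnfsf11 and Tnfsf9 were lower and Fasl was higher (background 6.20% and 6.93%), with changes of −2.42, −1.99, −1.44 and 2.08.

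The summed level of the 9 ligands and its make-up changed with time. The sum was 581 ± 17.8 TPM in Naive, 866 ± 19.3 at 24h, 1343 ± 84.3 at 48h and 613 ± 38.7 at 72h (SD, n = 3). In Naive, Ltb made up 85.7% ± 0.697 of it and Lta 1.90% ± 0.229. At 48h Lta made up 70.8% ± 0.122 and Ltb 10.7% ± 0.818. Tnfsf11, Tnfsf8 and Tnfsf14 held their largest shares at 24h, of 10.3% ± 0.717, 9.63% ± 1.00 and 5.41% ± 0.433. At 72h the sum lay near that of Naive, with the ranges overlapping (578.7 to 655 and 564.5 to 600.0 TPM), while Lta held 50% ± 1.91 of it.

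**Figure D3:**
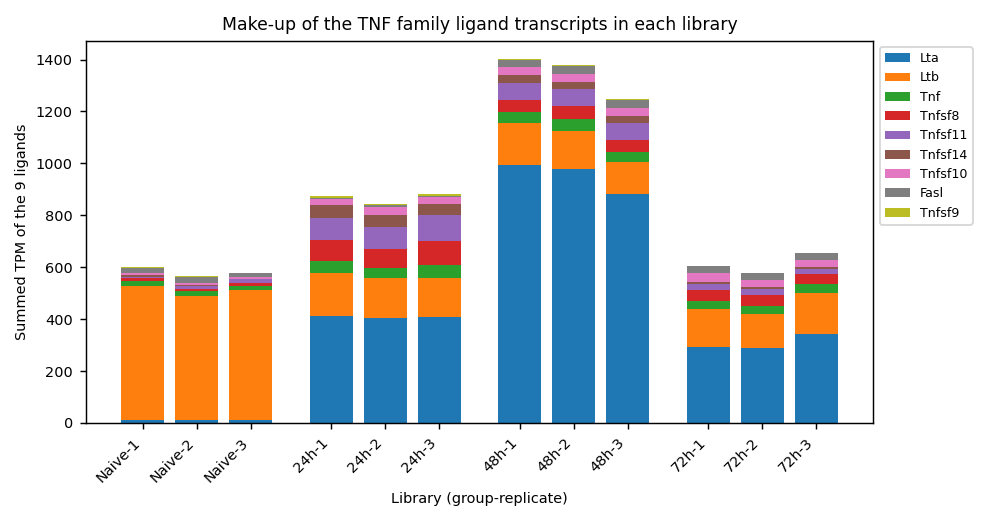
Summed TPM of the 9 ligands in each library, stacked by gene, by group and replicate. Ltb fills most of each Naive bar and Lta most of each 48h bar. The sums run from 564.5 to 600.0 TPM in Naive and from 1247 to 1403 TPM at 48h.

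For each ligand, the 2 genes of most similar course over the 12 libraries were found by the same root mean square difference. The pair for Lta was Tnfrsf4 (0.374), which encodes the costimulatory receptor OX40, and Bcat1 (0.434), a branched-chain amino acid enzyme. Tnfrsf4 stood at 7.10 ± 3.98 TPM in Naive and 243 ± 26.5, 762 ± 8.07 and 183 ± 2.66 TPM at 24h, 48h and 72h (SD, n = 3). Bcat1 stood at 0.078 ± 0.0426, 50 ± 2.36, 52.6 ± 0.915 and 30.9 ± 0.647 TPM in the same order, without a like rise from 24h to 48h. For Fasl they were Enpp1 (0.217) and the receptor kinase gene Kit (0.244), which stood at 5.63 ± 0.344 TPM in Naive, 1.61 ± 0.140 at 24h and 12.9 ± 0.416 at 48h. For Tnfsf14 they were Spry1 (0.195), which encodes an inhibitor of MAP kinase signalling, and Gfod1 (0.235), and for Tnfsf11 they were Gfod1 (0.201) and 1110032F04Rik (0.271). For Tnfsf8 they were Pum3 (0.105) and Nolc1 (0.112), both of nucleolar proteins. The other pairs were Stard13 (0.105) and Pacsin2 (0.11) for Tnf, 1700027J19Rik (0.115) and Zfp212 (0.118) for Ltb, Tsen34 (0.277) and Spata5l1 (0.277) for Tnfsf9, and Slc35a3 (0.0657) and Glod4 (0.0912) for Tnfsf10. The measure compares differences on the log2(TPM + 1) scale and not levels, and Stard13 reached no more than 1.70 ± 0.443 TPM on average, at 24h.

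Of 10 receptor genes of these ligands, 9 were tested, and at 24h vs Naive 2 rose (Tnfrsf8 and Tnfrsf9) and 3 fell (Tnfrsf1a, Tnfrsf1b and Ltbr). Over all genes 25.7% were higher and 21.0% lower, so these counts lay near the background, and the list median was −0.41 beside 0.15 over all genes. Tnfrsf9, which encodes 4-1BB, was at 7.21, 3.84 and 4.40 TPM in Naive and at 422 ± 34.2, 1131 ± 18.9 and 304 ± 3.57 TPM at 24h, 48h and 72h (SD, n = 3), with log2 fold changes of 6.14, 7.56 and 5.67 (limma adjusted p = 4.17e-13, 1.15e-13 and 1.16e-12). Its ligand Tnfsf9 was at 5.93 ± 1.16, 4.24 ± 0.956 and 1.55 ± 0.465 TPM at those times. Tnfrsf8, which encodes CD30, was at 0.426 ± 0.173 TPM in Naive, 15.5 ± 1.56 at 24h, 90.8 ± 5.42 at 48h and 281 ± 11.0 at 72h, and rose by 1.62 from 48h to 72h (adjusted p = 8.80e-08) while its ligand Tnfsf8 went from 48.8 ± 3.05 to 41.3 ± 1.91 TPM.

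At 24h both TNF receptor transcripts fell. Tnfrsf1a, the death domain receptor of TNF, averaged 64.9 ± 10.5 TPM in Naive libraries and 21.0 ± 1.61 at 24h (−1.57, adjusted p = 2.08e-08), and among Naive libraries it had the order of the myeloid markers. Tnfrsf1b, the receptor of TNF without a death domain, was at 232 ± 28.0 and 91.2 ± 9.05 (−1.33, adjusted p = 8.27e-09), and stood at 127 ± 6.37 TPM at 72h, 0.85 below Naive on the log2 scale (adjusted p = 8.95e-07). That 72h difference passed the fold minimum with median-of-ratios scaling (−1.14) and quantile normalization (−1.17). Naive Tnfrsf1b levels were 206, 229 and 261 TPM in replicates 1, 2 and 3, the reverse of the myeloid order. Ltbr, the lymphotoxin beta receptor, was at 9.53, 7.94 and 3.29 TPM in the Naive group (replicates 1, 2 and 3) and fell to 1.16 ± 0.201 TPM at 24h. Ltbr fell by 1.78 (adjusted p = 4.49e-05), or by 0.91 with a pseudocount of 5, under the fold minimum. The Naive libraries had the same order for the myeloid, NK cell, and erythroid and platelet markers. The part of such cells in this fall was not tested.

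Of the other receptors, only Tnfrsf11b was called against Naive. Fas, the death receptor of Fas ligand, was at 28.1 ± 4.54 TPM in Naive and 37.6 ± 2.84, 39.2 ± 4.05 and 41.4 ± 3.30 TPM later, with changes of 0.41 to 0.55 that lay under the fold minimum. Tnfrsf10b, the mouse TRAIL receptor, averaged 30.6 ± 7.02 TPM in Naive libraries and 15.3 ± 0.410 at 24h (−0.92, adjusted p = 1.45e-05), and passed the minimum there without Naive replicate 1 (−1.11) and under median-of-ratios and quantile scaling (−1.19 and −1.16). Tnfrsf14, which encodes HVEM, averaged 29.3 ± 4.88 TPM in Naive libraries and 14.6 ± 1.76 at 48h (−0.95, adjusted p = 2.61e-05), and passed it without Naive replicate 1 (−1.09) or 48h replicate 2 (−1.04) and under both scalings (−1.17 and −1.18). Tnfrsf11a, which encodes RANK, reached at most 1.19 TPM and was not tested. Tnfrsf11b, which encodes the decoy receptor osteoprotegerin, was listed at 0 in all Naive libraries and at 2.33 ± 0.471 TPM at 48h, and its calls at 48h and 72h were lost with a pseudocount of 5. With it, 3 receptors were higher and 3 lower at 48h vs Naive, and 3 higher and 2 lower at 72h. Those counts also lay near the shares of all genes (24.7% higher and 20.7% lower at 48h, 24.5% and 19.0% at 72h).

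**Figure D4:**
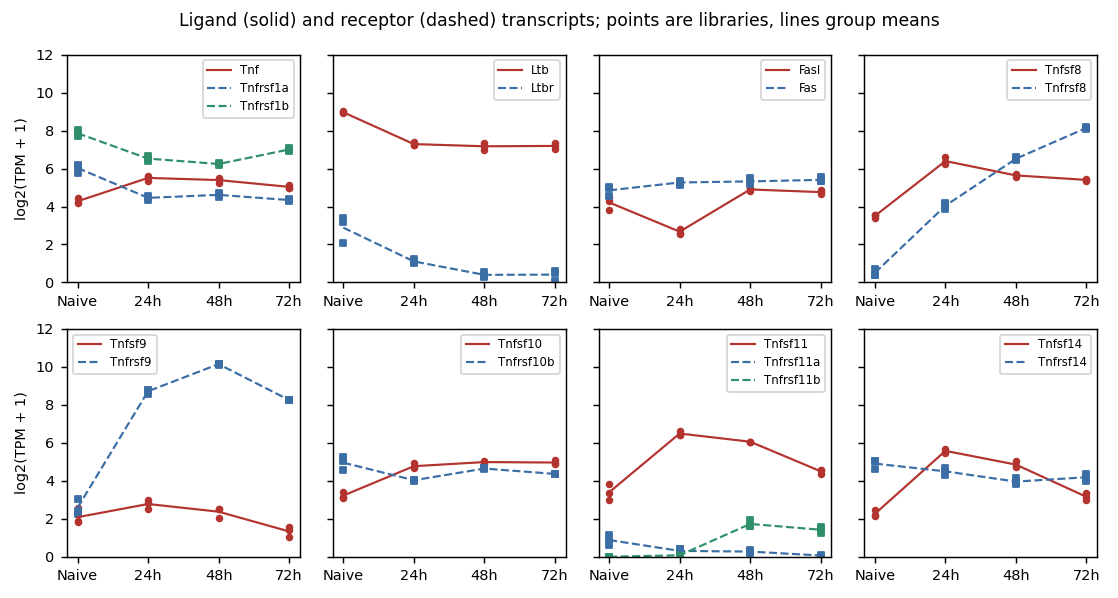
Log2(TPM + 1) of ligand transcripts (solid) and of their receptors (dashed) by group, with points for libraries and lines through group means. Lta has no panel, and Ltbr is drawn beside Ltb only. Tnfrsf8 rises at each step to 281 ± 11.0 TPM at 72h while Tnfsf8 is highest at 24h. Tnfrsf9 lies above Tnfsf9 in every library, those of the Naive group included.

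Of 9 other ligands of the superfamily, 4 were tested. At 24h vs Naive, Tnfsf4 and Cd70 rose and Cd40lg and Tnfsf12 fell, beside 25.7% higher and 21.0% lower over all genes, and so few genes allow no reading against those shares. Tnfsf4, which encodes OX40 ligand, averaged 0.201 ± 0.267 TPM in Naive libraries and 10.9 ± 2.92 at 24h (3.30, adjusted p = 1.03e-08). Cd70, which encodes the ligand of CD27, was listed at 0 in all Naive libraries and at 2.29, 3.89 and 3.61 TPM at 24h, a call lost with a pseudocount of 5. Cd40lg, known mainly as a helper T cell ligand, averaged 18.8 ± 5.06 TPM in Naive libraries and 4.15 ± 1.57 at 24h (−1.96, adjusted p = 1.25e-05). In Naive replicates 1, 2 and 3 Cd40lg was at 13.0, 22.1 and 21.3 TPM, beside Cd4 and Foxp3 sums of 9.41, 9.10 and 4.27 TPM. Those sums were 0.80 to 1.71 TPM at 24h. The part of CD4 T cells in the Cd40lg levels was not tested. Tnfsf12 was at 11.6, 7.38 and 3.32 TPM in the Naive group and at 0.106 TPM or less at 24h. Its Naive order was that of the myeloid, NK cell, and erythroid and platelet markers, and a link was not tested. The other 5 (Tnfsf13, Tnfsf13b, Tnfsf15, Tnfsf18 and Eda) did not pass the filter.

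Among 15 adaptors and regulators of TNF receptor signalling, 1 rose (Fadd) and 3 fell (Tnfaip3, Birc2 and Map3k14) at 24h vs Naive, with a median of −0.02 beside 0.15 over all genes. The share that fell was near the 21.0% of all genes, and the share that rose lay below their 25.7%. Tnfaip3, which encodes A20, a brake on NF-kappaB signalling, went from a Naive level of 865 ± 153 TPM to 36.9 ± 1.37 at 24h, 53.1 ± 1.17 at 48h and 16.5 ± 1.71 at 72h (log2 fold change −4.50, −3.99 and −5.62, adjusted p = 4.53e-13, 1.55e-12 and 1.02e-13). At 48h Traf1, a signalling adaptor, was the 1 of 15 that rose (24.7% of all genes did), from 52.3 ± 4.26 TPM in Naive to 129 ± 1.64 (1.29, adjusted p = 4.95e-10), and it fell by 1.69 from 48h to 72h (adjusted p = 1.66e-09), as Lta did. Birc2, which encodes an inhibitor of apoptosis protein, fell by 1.47 at 24h. At 72h vs Naive, 3 rose (Casp8, Fadd and Ripk1) and 5 fell, beside 24.5% higher and 19.0% lower over all genes. Among those that fell was Birc3 (−1.04). The Birc3 call was lost without Naive replicate 2 (−0.997), Naive replicate 3 (−0.98) or 72h replicate 3 (−0.99), and with a pseudocount of 5 (−0.981). Casp8, the initiator caspase of death receptors, went from a Naive level of 71.0 ± 3.90 TPM to 169 ± 4.85 at 72h (1.24, adjusted p = 7.21e-10), under the fold minimum with median-of-ratios scaling (0.96) and quantile normalization (0.92). Ripk1, a kinase of the TNF receptor complex, rose by 1.35 at 72h.

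Of 12 genes that act on the release of TNF or on the decay of its mRNA, 1 rose (Elavl1) and 5 fell (Zfp36, Zfp36l1, Zfp36l2, Zc3h12a and Rhbdf2) at 24h vs Naive, with a median of −0.40 beside 0.15 over all genes, of which 25.7% were higher and 21.0% lower. The Rhbdf2 call was lost with a pseudocount of 5 (−0.81), which left 4 lower. Zfp36, which encodes tristetraprolin, a protein that binds AU-rich elements and promotes decay of TNF mRNA, was at 432, 391 and 295 TPM in Naive and at 24.7 ± 1.90, 28.7 ± 1.14 and 20.6 ± 1.18 TPM at 24h, 48h and 72h (log2 fold change −3.85, −3.64 and −4.09, adjusted p = 3.31e-12, 6.49e-12 and 2.48e-12). Among Naive libraries Zfp36 had the order of the myeloid markers, which the NK cell sums and the erythroid and platelet sums also had. Zfp36l2 (963, 1316 and 1235 TPM in replicates 1, 2 and 3) and Zc3h12a (161, 184 and 171 TPM) did not have it. The part of other cells in these levels was not tested. Its relatives Zfp36l1 and Zfp36l2 fell by 1.59 and 2.75 at 24h, and Zc3h12a, which encodes the RNase Regnase-1, by 2.94. Elavl1, which encodes HuR, a protein that binds AU-rich elements and stabilises mRNA, went from a Naive level of 36.1 ± 3.63 TPM to 102 ± 2.39 at 24h (1.48, adjusted p = 1.88e-10). It was called higher at 48h (1.17), under the minimum there with median-of-ratios scaling (0.94) and quantile normalization (0.91), and was 0.95 above Naive at 72h, where it passed without Naive replicate 3 (1.01). Adam17, the protease that releases TNF, was not called at any time, at 26.4 ± 2.45 TPM in Naive and 33.2 ± 1.90 at 24h.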

How the data were processed

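Bulk RNA-seq of 12 libraries was used as TPM per gene, the unit the authors deposited, which totals 1000000 in each. Per the submitters' processing notes, FastQC 0.11.9, cutadapt 2.9, STAR 2.7.7a, edgeR 3.36.0 and the build GRCm39 were used. How reads were counted, on which strand and with what rule for shared reads is not stated there. Values were analysed as log2(TPM + 1), which understates changes of low genes, for the 12630 genes that reached 1 TPM in 3 or more libraries. Group means of all 4 groups were estimated in a single limma fit (version 3.58.1, R 4.3.3; variance trend on mean level), with 6 comparisons and 2-sided p-values, each comparison's p-values being corrected by the Benjamini-Hochberg method. The procedure was tested on simulated data. TPM steps gave whole reads (tolerance 0.001) for 100% of genes above 0, up to a common factor per gene.

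The members and lists were chosen with earlier results of these data known. Named genes are the 9 ligands, their receptors, up to 6 called genes per list by mean TPM, and the 2 most similar genes per ligand. Fadd, Map3k14 and Adam17 were named after their values were seen. Alternatives changed the pseudocount (0.1 or 5), the filter (none or 5 TPM), the scaling (median-of-ratios or quantile), the variance trend or the libraries fitted (each left out in turn, or 2 groups alone), or added a replicate block. Added after seeing the data were voom on recovered reads and leaving out all 3 Naive libraries. Figures used Python 3.11.15 and matplotlib 3.10.9.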

Additional observations from a re-analysis of the deposited data

How the results depend on the processing

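Of 54 ligand comparisons, 44 kept their direction and their side of the threshold under every alternative run. Ligands lower at 72h vs Naive numbered 2 in place of 1 with a pseudocount of 0.1 and with voom on recovered reads, where Tnfsf9 (−1.05 and −1.25) joined Ltb; the cause was not tested. With a single library left out, ligands lower numbered 3 to 4 at 72h vs 24h and 3 to 4 at 72h vs 48h, and the other counts did not move. An unmoved count can hide an exchange of calls. At 72h vs Naive without Naive replicate 1, Tnfsf11 (0.91) lost its call and Tnfsf14 (1.004) gained one. Differences near 0 turned sign. Ltb at 72h vs 48h was −0.035 with median-of-ratios scaling, −0.010 with quantile normalization, −0.001 with voom, −0.085 without 48h replicate 3 and −0.048 without 72h replicate 3, with a range of −0.085 to 0.108 over libraries left out. Tnfsf10 at 72h vs 48h was 0.011 and 0.026 without those libraries, with a range of −0.088 to 0.026. At 24h vs Naive, Traf1 was −0.180, −0.266 and −0.068 and Casp8 −0.123, −0.229 and −0.011 with median-of-ratios scaling, quantile normalization and voom. Same-numbered libraries of different groups did not deviate together (r of −0.052 to 0.089 over 18 pairs, and 1 of 12 libraries was closest to its own number in every other group), so the numbers were not taken to pair them; with a replicate block 6 ligands were higher and 2 lower at 24h vs Naive, as without it, and no ligand call changed. Among the other lists, further ligands higher numbered 1 in place of 2 at 24h and 48h with a pseudocount of 5 or a filter of 5 TPM, and 2 in place of 1 at 72h with a pseudocount of 0.1 or without 72h replicate 3 (Cd70). Further ligands lower numbered 1 in place of 2 at each time with the filter of 5 TPM, as did receptors lower at 72h. Adaptors higher numbered 2 in place of 1 at 48h with quantile normalization and 1 in place of 3 at 72h with median-of-ratios scaling, and adaptors lower 3 in place of 5 at 72h with a pseudocount of 5. Of the release and decay genes, 0 in place of 1 were higher at 48h under both scalings, 1 in place of 0 at 72h without Naive replicate 3 (Elavl1), and 7 in place of 4 lower at 72h under both scalings and voom. Tnfsf9 was not tested with the filter of 5 TPM, and its 8 to 51 reads per library limit its precision.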
